A study of Mus musculus with 18 samples.

Results

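Small RNA libraries from exercised mice on a high-fat diet (HF+Ex) were set against those from mice on a low-fat diet with no intervention (LF), to ask how close liver miRNAs of the exercised high-fat mice lay to the lean level. The 6 libraries, 3 per group, were picked by their titles from a series of 18. All came from C57BL/6J mice, an inbred strain, of wild type genotype, whose regimens began at 5 weeks of age and whose livers were taken at 62 weeks. LF and HF are read as low-fat and high-fat diet and Ex as exercise, since the labels use the abbreviations alone; the sources used here give neither the kind and amount of exercise, nor the diet recipes, nor the sex of the mice. The 3 sedentary high-fat libraries (HF) are shown beside them for orientation. No label ties a library to a separate animal, so the p-values measure the spread between libraries, which may be technical. Of 758 miRNAs in the files, 351 reached 5 RPM (reads scaled to a common library total, as deposited) in at least 3 of the 18 libraries and were tested.

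A miRNA is a short RNA that guides the Argonaute silencing complex to messenger RNAs, mainly through pairing of its seed, the bases 2 to 8 counted from its 5′ end, and so lowers their stability and translation. In liver, miRNAs bear on cholesterol export, lipoprotein uptake, gluconeogenesis and regrowth after injury, and several are known to shift with obesity. Many are cut from shared transcripts, so members of a genomic cluster can be read together, and members of a seed family bind overlapping sets of targets.

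The miRNAs below carry the comparison and are shown from 5′ to 3′ with the seed in capitals, from RefSeq (GRCm38.p6); 11 of the 12 miRNAs with the smallest p had an entry there. The 4 first have precursors in the transcript Mir17hg, with a second copy elsewhere for miR-19b-3p, and form a pair of seed families; their means were lower in HF+Ex.
miR-17-5p: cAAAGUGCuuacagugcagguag
miR-20a-5p: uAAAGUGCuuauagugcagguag
miR-19a-3p: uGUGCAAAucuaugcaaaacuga
miR-19b-3p: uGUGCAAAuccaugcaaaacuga
The next are neighbours on chromosome 6, also lower in HF+Ex, and have different seeds.
miR-96-5p: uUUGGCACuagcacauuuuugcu
miR-182-5p: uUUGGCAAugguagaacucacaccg
The following 3 are neighbours on the X chromosome and were higher in HF+Ex; the seed of miR-351-5p is that of the abundant miR-125a-5p and miR-125b-5p.
miR-503-5p: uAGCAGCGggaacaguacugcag
miR-322-5p: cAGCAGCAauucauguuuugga
miR-351-5p: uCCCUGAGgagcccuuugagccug
miR-125a-5p: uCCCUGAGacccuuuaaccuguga
miR-125b-5p: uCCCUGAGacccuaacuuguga
Last come miR-205-5p, which had the largest difference above 0, the hypoxia miRNA miR-210-3p, the GC-rich entry miR-5126 and the sterol miRNA miR-33-5p.
miR-205-5p: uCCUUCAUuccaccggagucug
miR-210-3p: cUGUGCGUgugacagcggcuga
miR-5126: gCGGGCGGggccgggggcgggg
miR-33-5p: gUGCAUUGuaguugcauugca

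The libraries were those of liver in both groups: miR-122-5p, the main miRNA of hepatocytes, ranged from 206787 to 281284 RPM across the LF libraries and from 234912 to 267972 RPM across those of HF+Ex. Reads on listed miRNAs, recovered from the RPM steps, came to 6.98 to 8.88 M in LF, and to 2.38, 7.25 and 8.69 M in HF+Ex 1, 2 and 3 (M, 10 to the power 6). Some libraries stood apart. LF 1 held 9030 RPM of leukocyte and Kupffer cell miRNAs against 2939 and 4503 RPM in LF 2 and LF 3, and 8781 RPM of epithelial and biliary miRNAs against 3672 and 5007 RPM. LF 2 was the highest in muscle miRNAs, at 155 RPM against 28.5 and 87.3 RPM. HF+Ex 1, the shallowest of all 18 libraries, held 575 RPM of entries that resemble fragments of other RNAs, against 52.4 and 60.3 RPM in HF+Ex 2 and 3. The root mean square log2 difference over the 351 miRNAs was 0.57 to 0.97 between an HF+Ex and an LF library (median 0.75 over 9 pairs). It was 0.58 to 0.94 between LF libraries and 0.42 to 0.71 between HF+Ex libraries. Between an HF and an LF library it was 0.53 to 0.99 (median 0.72), so the distance from LF overlapped the distance within LF. Between an HF+Ex and an HF library it was 0.44 to 0.72 (median 0.605). By the median HF+Ex thus lay nearer HF than LF, with overlapping ranges.

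No miRNA passed the test between HF+Ex and LF (0 of 351, or 0%, at an adjusted p under 0.05; limma on log2(RPM + 1) with Benjamini-Hochberg adjustment, in a fit of all 18 libraries), and none did with voom weights. At an unadjusted p under 0.05 there were 42, of which 26 were higher (7.41%) and 16 lower (4.56%) in HF+Ex. In 64 miRNAs (18.2%) the groups did not overlap, with 35 (9.97%) above and 29 (8.26%) below every LF library. The median difference over all miRNAs was 0.04 on the log2 scale, with 53.6% above 0. For 208 miRNAs (59.3%) the 95% interval of the difference lay wholly between -1 and 1, so that for these a change by a factor of 2 fell outside the interval. For the other 143 the interval reached past -1 or 1. Rescaling RPM by median-of-ratios size factors shifted the median by -0.04 and gave 5 calls, named where they are described.

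**Figure D1:**
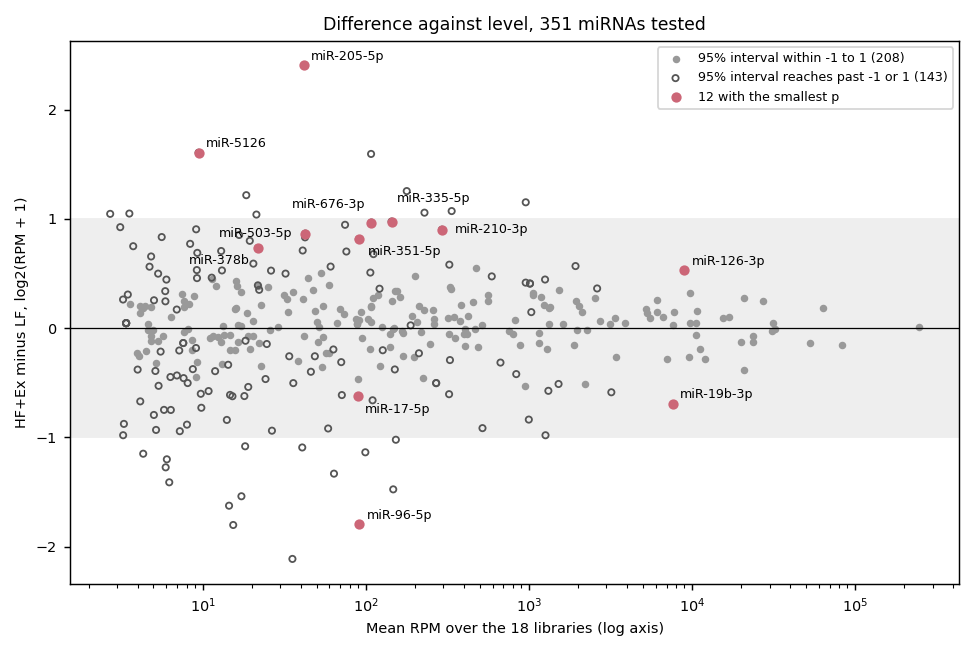
Difference between HF+Ex and LF in log2(RPM + 1) against the mean RPM over the 18 libraries (log axis) for the 351 miRNAs tested. The band marks -1 to 1; the intervals of 208 miRNAs stay inside it, and the 12 with the smallest p, in red, run from -1.80 (miR-96-5p) to 2.40 (miR-205-5p).

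The 12 miRNAs with the smallest p comprised 9 that were higher and 3 that were lower in HF+Ex. They were chosen for a small p, so that in all 12 the groups were apart adds no support. The plot of these 12 shows the HF mean of all 9 higher ones on the same side of LF as that of HF+Ex. Of the 3 lower ones, miR-17-5p had HF above LF. HF is set here against the same LF libraries that entered the choice, so these sides are given as a description.

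**Figure D2:**
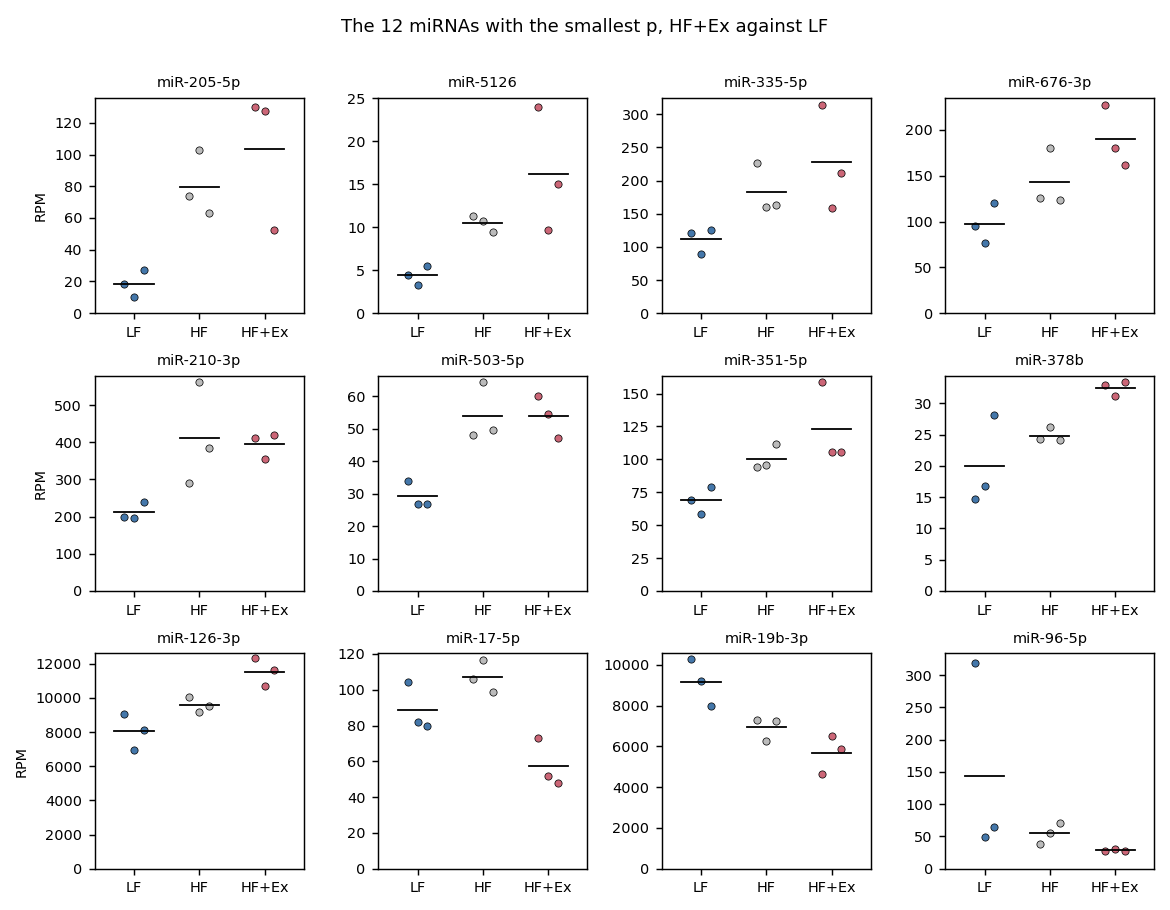
RPM in each library (points) with the group mean (bar) for LF, HF and HF+Ex, 3 libraries each, for the 12 miRNAs with the smallest p; each axis starts at 0. In every panel the HF+Ex points lie on one side of the LF points, and in miR-96-5p a single LF library, at 319 RPM, sets the LF mean.

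The largest difference above 0 was that of miR-205-5p, an epithelial miRNA that represses the Zeb transcription factors, on chromosome 1 (193507503 to 193507524, minus strand, GRCm38), within an exon of 4631405K08Rik. It had 18.4, 10.1 and 27.1 RPM in LF and 130, 128 and 52.5 RPM in HF+Ex. The log2 difference was 2.40 (SE 0.70, 95% interval 0.92 to 3.89, adjusted p = 0.135). The lowest HF+Ex library still lay above the highest LF library, and the 3 HF libraries, at 73.7, 103 and 63.2 RPM, lay among those of HF+Ex. HF+Ex minus HF was 0.29, with an interval of -1.20 to 1.77. Of the 11 tested epithelial miRNAs, 9 had the opposite direction, as described with the cell type lists.

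miR-210-3p, which hypoxia-inducible factor induces and which represses mitochondrial iron-sulfur cluster assembly, is on chromosome 7 (141221407 to 141221428, minus strand). Its level was 200.1, 195.3 and 240.0 RPM in LF and 412, 356 and 419 RPM in HF+Ex, a log2 difference of 0.90 (SE 0.24, adjusted p = 0.0864). Every HF+Ex library lay above every LF library. HF stood at 292, 561 and 384 RPM, and HF+Ex minus HF was -0.01 (interval -0.51 to 0.49).

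The cluster of miR-322, miR-503, miR-351, miR-542 and miR-450 lies on the X chromosome; miR-322-5p and miR-503-5p restrain the cell cycle by repressing cyclins and their kinases. miR-503-5p (X chromosome, 53054027 to 53054049, minus strand) had 33.8, 27.0 and 26.8 RPM in LF and 60.2, 54.5 and 47.2 RPM in HF+Ex (log2 difference 0.86, SE 0.22, adjusted p = 0.0864). miR-351-5p (53053315 to 53053338) had 68.9, 58.8 and 78.8 RPM in LF and 159, 105 and 106 RPM in HF+Ex (0.81, SE 0.22, adjusted p = 0.0864). HF+Ex 1 was the highest library for both, and neither overlapped LF. After rescaling, both passed (adjusted p = 0.0429 for both, over a range of 0.0350 to 0.272 for miR-503-5p and 0.0429 to 0.366 for miR-351-5p across alternatives). Of the 9 cluster members tested, out of 13 listed, 8 were above 0, with a median of 0.30; 4 had an unadjusted p under 0.05 in the higher direction (7.41% of all miRNAs did) and 5 lay above every LF library (9.97%). The count of 4 was 2 without LF 2 and 2 without HF+Ex 3. miR-322-3p was at 0.56, miR-542-5p at 0.53 and miR-322-5p at 0.30, whereas miR-450b-3p was at -0.01. The cluster's sum ranged from 746 to 852 RPM across LF libraries and from 998 to 1096 RPM across HF+Ex libraries, with no overlap. Seed relatives outside the cluster were placed differently: miR-125b-5p, with the seed of miR-351-5p and 6631 ± 847 RPM in LF (SD, n = 3), was at 0.15 (interval -0.27 to 0.56), and miR-125a-5p was at -0.84.

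Of the other higher miRNAs, miR-335-5p lies in an intron of Mest, an imprinted gene linked to fat storage. It had 121, 89.8 and 126 RPM in LF and 313, 159 and 211 RPM in HF+Ex (log2 difference 0.97, SE 0.29, adjusted p = 0.148). miR-676-3p, in an intron of Eda, had 94.7, 77.0 and 120.1 RPM in LF and 227, 180.3 and 162 RPM in HF+Ex (0.97, SE 0.24, adjusted p = 0.0864). Both were highest in HF+Ex 1, and miR-676-3p passed after rescaling (adjusted p = 0.0429, over a range to 0.272). miR-126-3p, the endothelial miRNA that supports vessel integrity, was at 9069, 6946 and 8108 RPM in LF and 12333, 10673 and 11618 RPM in HF+Ex (0.53, SE 0.16, adjusted p = 0.144). The 3 groups were ordered LF, HF, HF+Ex by mean, with HF at 9600 ± 455 RPM. The other arm, miR-126-5p, was at 0.14 against LF (0.10 after rescaling, interval -0.36 to 0.55). miR-378b, a low-level relative of the mitochondrial regulator miR-378a, had 14.8, 16.8 and 28.2 RPM in LF and 32.9, 31.1 and 33.5 RPM in HF+Ex (0.73, SE 0.24, adjusted p = 0.222). Its abundant relatives miR-378a-3p at 0.16 and miR-378c at 0.27 overlapped between groups. miR-5126 had 4.41, 3.34 and 5.46 RPM in LF and 24.0, 9.62 and 15.1 RPM in HF+Ex (1.61, SE 0.39, adjusted p = 0.0864; 0.0429 after rescaling, and 0.0220 to 0.272 across alternatives). It stands on the list of fragment-like entries, and its highest value is in HF+Ex 1, the library richest in them; their part in the result was not tested.

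Among the lower miRNAs, those of Mir17hg stood together. This non-coding transcript on chromosome 14 holds several precursors and is a target of Myc; its miRNAs promote cell growth. miR-19b-3p, the most abundant of them, had 10275, 9189 and 7958 RPM in LF and 4638, 6523 and 5872 RPM in HF+Ex. The log2 difference was -0.69 (SE 0.14, adjusted p = 0.0705), and its p was the smallest of the comparison. It passed with a filter of 50 RPM (adjusted p = 0.0439) and without HF+Ex 2 (0.0432), over a range to 0.248 across alternatives. miR-17-5p had 104, 81.9 and 80.0 RPM in LF and 73.2, 52.0 and 47.9 RPM in HF+Ex (-0.63, SE 0.17, adjusted p = 0.0864), and passed without HF+Ex 1 (-0.81, adjusted p = 0.0494; 0.0494 to 0.387 across alternatives). Every HF+Ex library lay below every LF library for both.

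Their seed partners were placed alike. miR-19a-3p had 1881, 1434 and 1157 RPM in LF and 806, 1144 and 1024 RPM in HF+Ex (log2 difference -0.57, SE 0.20). miR-20a-5p had 1018, 906 and 670.2 RPM in LF and 748, 534 and 515 RPM in HF+Ex (-0.53, interval -0.93 to -0.13); HF+Ex 1 lay within the LF range. Without LF 1 the difference was -0.39 for miR-19a-3p and -0.40 for miR-20a-5p, and both intervals then reached 0. All 5 tested miRNAs with the seed AAAGUGC were below 0, down to miR-20b-5p at -0.18, as were both with the seed GUGCAAA. The remaining arms cut from the transcript were nearer 0: miR-92a-3p at -0.16, miR-17-3p at -0.19, miR-18a-5p at -0.09 and miR-20a-3p at -0.33. miR-19b-3p and miR-92a-3p have a second precursor on the X chromosome, so their reads cannot be assigned to one transcript.

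Mir17hg and its relatives in Mcm7 and on the X chromosome gave 15 tested miRNAs of 18 listed, of which 14 were below 0 (against 46.4% of all miRNAs) with a median of -0.32 (0.04 for all miRNAs); 4 had an unadjusted p under 0.05, all lower (4.56% over all miRNAs), and 3 lay below every LF library (8.26%). Their sum was at least 16830 RPM in every LF library and at most 14070 RPM in every HF+Ex library. miR-19b-3p, which had the smallest p of the comparison, made up a large part of that sum, so the gap adds no separate support. Without LF 1, 12 of 15 were below 0, with a median of -0.14 and 2 at an unadjusted p under 0.05, and after rescaling all 15 were, with a median of -0.35. HF was placed in more than one way: miR-17-5p and miR-20a-5p were at 107 ± 9.01 and 1071 ± 139 RPM in HF, above their LF means, while miR-19b-3p was at 6934 ± 571 RPM, between LF and HF+Ex. HF+Ex minus HF was -0.90 (interval -1.26 to -0.55) for miR-17-5p, -0.85 (-1.26 to -0.45) for miR-20a-5p and -0.30 (-0.60 to 0.01) for miR-19b-3p, from comparisons that share the HF+Ex libraries.

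**Figure D3:**
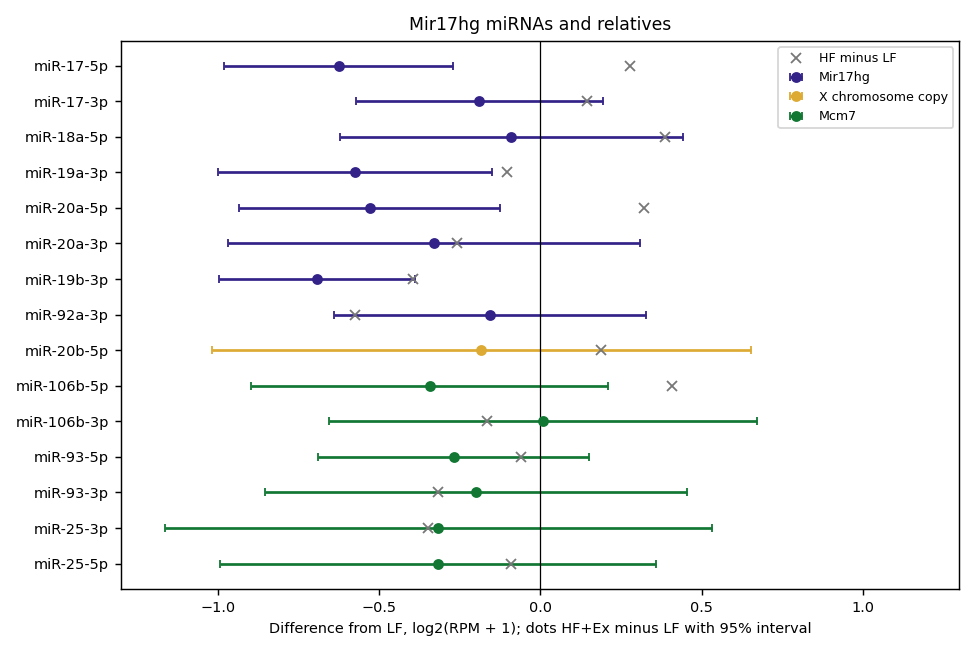
Difference from LF in log2(RPM + 1) for the 15 tested miRNAs of Mir17hg (in transcript order), the X chromosome copy and Mcm7. Dots with bars are HF+Ex minus LF with the 95% interval, crosses are HF minus LF; the intervals of miR-17-5p, miR-19a-3p, miR-20a-5p and miR-19b-3p lie below 0, and the crosses of miR-17-5p and miR-20a-5p lie above it.

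miR-96-5p, with miR-182-5p and miR-183-5p, forms a cluster known from sensory organs and induced by sterol regulatory element binding proteins. Its level was 319, 49.8 and 63.9 RPM in LF and 26.8, 30.5 and 27.8 RPM in HF+Ex (log2 difference -1.80, SE 0.48, adjusted p = 0.0864). The HF+Ex libraries were nearly equal, and LF 1 was far above the rest. Without LF 1 the difference was -0.97 (adjusted p = 0.120), and after rescaling it was -1.84 (adjusted p = 0.0429; 0.0429 to 0.387 across alternatives). miR-182-5p was at 486, 95.4 and 130.4 RPM in LF and 67.1, 53.2 and 76.5 RPM in HF+Ex (-1.48; -0.77 without LF 1), and miR-183-5p was at -1.33 (-0.61 without LF 1). All 3 were below every LF library, as were 8.26% of all miRNAs. Without LF 1 the interval reached past 0 for miR-182-5p (-1.63 to 0.08) and miR-183-5p (-1.595 to 0.37). That of miR-96-5p did not (-1.555 to -0.385). HF+Ex minus HF was -0.90 for miR-96-5p (interval -1.92 to 0.13) and -0.05 for miR-182-5p.

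The 10 miRNAs with the smallest p in HF against LF show where HF+Ex lay for those that differed most between the diets. They were picked for the distance between HF and LF, and HF+Ex is compared with the same HF and LF libraries, so the values are given as a description. The plot of these 10 by library shows 3 arrangements.

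By their means, miR-205-5p, miR-503-5p, miR-210-3p and the muscle miRNA miR-1a-3p lay near the HF level with exercise. For miR-205-5p and miR-1a-3p the interval of HF+Ex minus HF reached past -1 and 1, so a level equal to HF is not shown. miR-1a-3p had 20.0, 131.5 and 64.2 RPM in LF, 13.2, 4.28 and 18.2 RPM in HF and 14.2, 15.2 and 8.03 RPM in HF+Ex. HF+Ex minus HF was 0.21 (interval -1.44 to 1.86) and HF+Ex minus LF was -2.11 (-3.77 to -0.46).

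A second set lay between HF and LF by its mean. miR-33-5p, which is cut from an intron of Srebf2, a master gene of sterol synthesis, and represses the cholesterol exporter Abca1, had 11.8, 6.68 and 8.03 RPM in HF+Ex, against 13.2, 21.2 and 24.2 RPM in HF and 6.35, 5.14 and 5.57 RPM in LF. HF+Ex minus HF was -1.05 (interval -1.61 to -0.50), and HF+Ex minus LF was 0.53 (-0.03 to 1.08). No HF+Ex library reached the lowest HF library, nor did any reach down to the highest LF library. The other arm, miR-33-3p, was on the other side of LF at -0.26 (-0.28 after rescaling, interval -0.90 to 0.33). let-7e-5p, from an intron of Spaca6, had 905, 744 and 922 RPM in HF+Ex, 533, 559 and 482 RPM in HF and 1483, 927 and 1085 RPM in LF, with HF+Ex minus LF at -0.42 (interval -1.13 to 0.28). Its neighbours in that gene differed in their place: miR-99b-5p was at -0.01 (-0.71 to 0.68) against LF, while miR-125a-5p was at -0.84 (-1.67 to -0.01). miR-32-5p, from an intron of Tmem245, was at 595 ± 78.2 RPM in HF+Ex, 780 ± 194 RPM in HF and 442 ± 151 RPM in LF. miR-450a-5p and miR-10b-5p, the second from the Hoxd cluster, likewise had HF+Ex means between the others, at 38.4 ± 10.2 and 29.6 ± 18.1 RPM, and both overlapped LF.

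miR-148a-3p, a hepatocyte miRNA that represses the LDL receptor, lay on the far side of LF by its mean. It had 13651, 11113 and 10722 RPM in HF+Ex, 28463, 20913 and 22733 RPM in HF and 15739, 18107 and 12748 RPM in LF. HF+Ex minus HF was -1.02 (interval -1.48 to -0.56) and HF+Ex minus LF was -0.39 (-0.84 to 0.07). HF+Ex 1 lay within the LF range and the other HF+Ex libraries below it.

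**Figure D4:**
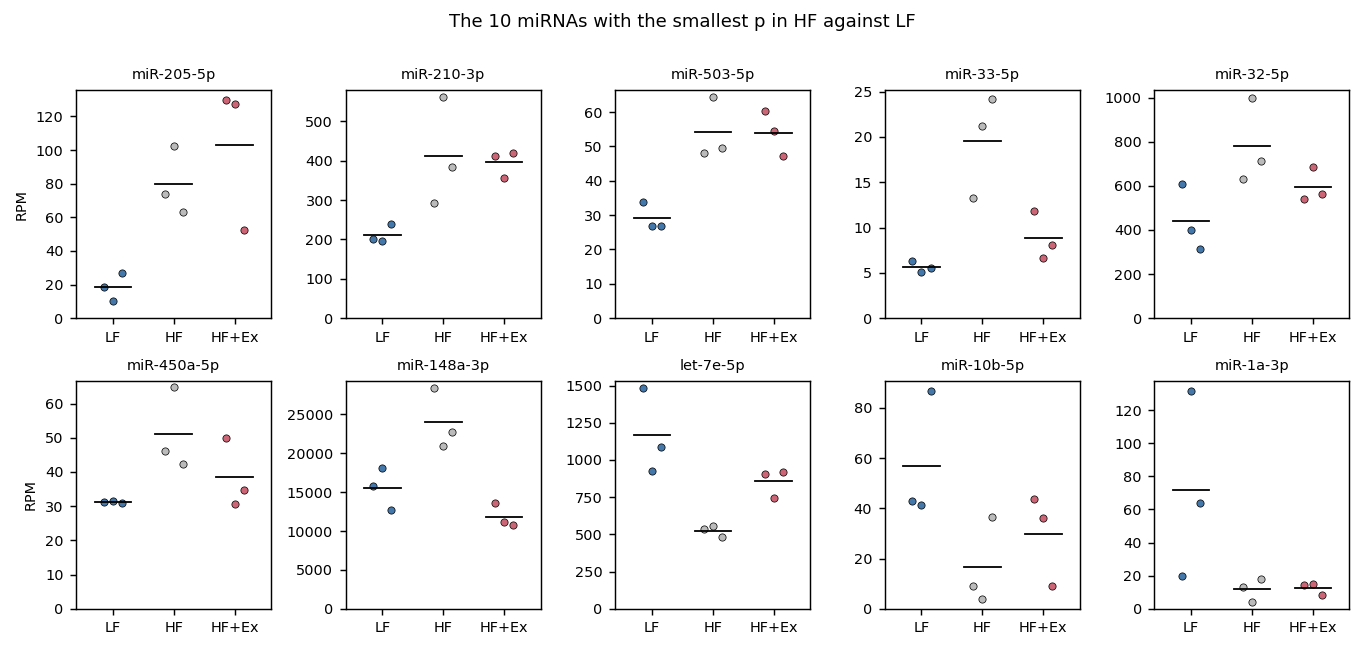
RPM in each library (points) with the group mean (bar) for the 10 miRNAs with the smallest p in HF against LF, 3 libraries per group; each axis starts at 0. By its mean, HF+Ex sits near HF for miR-205-5p, miR-210-3p, miR-503-5p and miR-1a-3p. It sits between HF and LF by its mean for miR-33-5p, miR-32-5p, miR-450a-5p, let-7e-5p and miR-10b-5p, and on the far side of LF for miR-148a-3p.

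The abundant miRNAs were close to LF. For the 10 with the highest mean RPM the difference ran from -0.16 (miR-21a-5p, a growth and injury miRNA) to 0.24 (let-7a-5p). Every interval lay between -1 and 1 (59.3% over all miRNAs). All 10 overlapped between groups, and 18.2% of all miRNAs did not. miR-122-5p was at 0.01 (interval -0.28 to 0.29). miR-29a-3p, which lowers collagen messages, was at 0.19 (-0.08 to 0.45). Of the hepatocyte miRNAs miR-192-5p and miR-194-5p, the first was at -0.01 and the second at -0.14.

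By pathway, the lipid and sterol list had 14 of 23 tested members above 0 (53.6% over all miRNAs) with a median of 0.09. It had 3 higher (7.41% over all miRNAs) and 3 lower (4.56%) at an unadjusted p under 0.05. Its median was -0.02 without HF+Ex 1, with 11 of 23 above 0, 0.01 without LF 2 and 0.04 after rescaling. Those higher were miR-205-5p, miR-335-5p and miR-223-3p, and those lower were miR-19b-3p, miR-96-5p and miR-182-5p. The regulators miR-27b-3p (0.09), miR-30c-5p (0.14) and miR-185-5p (0.28), which act on lipid synthesis and lipoprotein assembly or uptake, overlapped between groups. In the insulin and glucose list 12 of 23 were above 0 with a median of 0.03, and 19 of 23 had their interval between -1 and 1. miR-107-3p and miR-103-3p, which lower insulin sensitivity through Cav1, were at 0.17 and -0.06, with miR-107-3p above LF in every HF+Ex library, and miR-802-5p, known to be raised in obesity, was at 0.04 (interval -0.51 to 0.58). The direction of that list's median turned with rescaling (-0.01), without LF 2 (-0.06) and without HF+Ex 3 (-0.02).

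The let-7 family (median 0.04, 10 of 16 above 0), the miR-29 family (-0.03, 3 of 7) and the miR-30 family (-0.02, 5 of 11) were centred near 0, and 14, 7 and 11 of their members had the interval between -1 and 1. The let-7 median was 0.00 after rescaling, with 8 of 16 above 0. It ran from -0.10 without HF+Ex 3 (-0.09 without LF 3) to 0.14 without LF 1. Where identical miRNAs were counted once, 9 of 15 let-7 entries were above 0, with a median of 0.05. With 1 library left out the miR-29 median ran from -0.07 to 0.08 and the miR-30 median from -0.06 to 0.03. The p53 target miR-34a-5p had 3493, 1293 and 1831 RPM in LF and 2695, 3657 and 2732 RPM in HF+Ex (0.57, interval -0.49 to 1.63); LF 1 lay among the HF+Ex libraries. In the mitochondrial and energy list 7 of 9 were above 0 (53.6% over all miRNAs), with a median of 0.15. In it miR-210-3p and miR-378b were those with an unadjusted p under 0.05, both higher (7.41% over all miRNAs). The median was 0.05 without HF+Ex 1 and 0.09 without LF 2, with 5 of 9 above 0 each time.

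**Figure D5:**
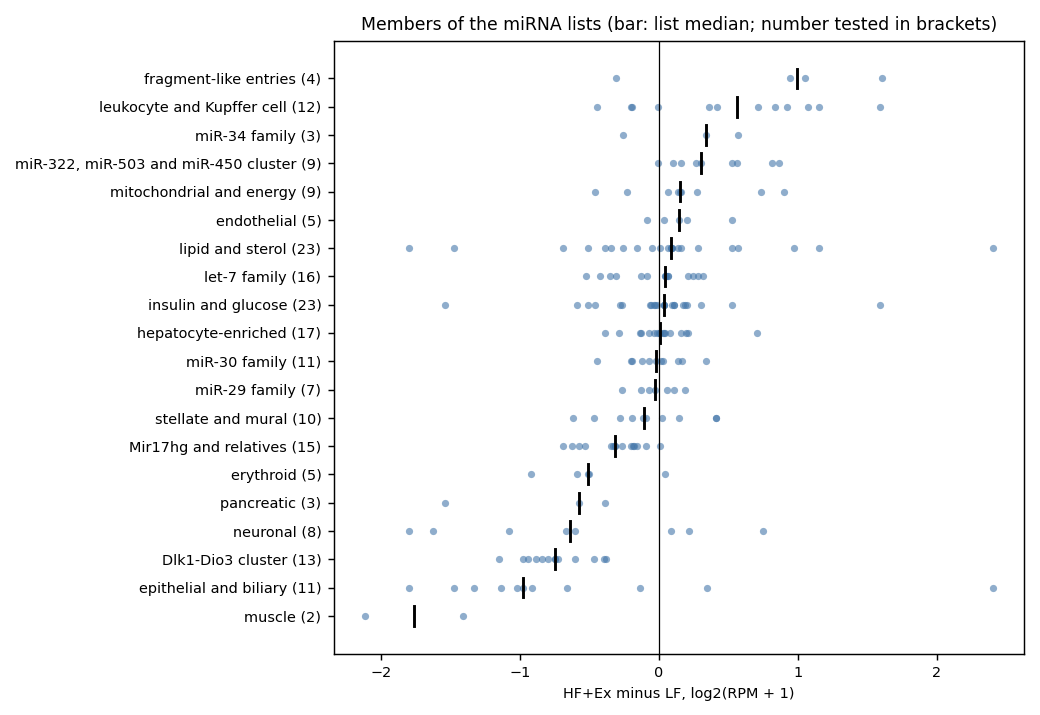
Difference between HF+Ex and LF in log2(RPM + 1) for each tested member (points) of the 20 miRNA lists, ordered by list median (bars); some miRNAs stand on several lists. The medians of the let-7, miR-29, miR-30 and hepatocyte lists lie near 0, and the widest spread, from -1.80 to 2.40, is that of the epithelial and biliary list and of the lipid and sterol list.

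The 17 hepatocyte miRNAs had a median of 0.01, with 16 intervals between -1 and 1. That median was -0.04 after rescaling, and -0.12 to 0.14 with 1 library left out. In bulk tissue fewer cells of a type and less of a miRNA per cell cannot be told apart. The epithelial and biliary list had 9 of 11 members below 0 (46.4% over all miRNAs) with a median of -0.98, and miR-200a-3p was at 3420, 576 and 1175 RPM in LF and 651, 806 and 573 RPM in HF+Ex. Without LF 1 the median was -0.30 and without LF 2 it was -1.58, with 9 of 11 below 0 in each case. The imprinted Dlk1-Dio3 cluster, expressed from the maternal chromosome, had 13 of 13 tested members below 0, out of 56 listed, with a median of -0.75. All were low, and none passed a filter of 50 RPM. miR-136-3p, at -1.15, was the one with an unadjusted p under 0.05 (4.56% of all miRNAs were lower at that p). The cluster summed to 299, 90.5 and 173 RPM in LF and 91.5, 126 and 73.2 RPM in HF+Ex, so the groups overlapped. Without LF 1 its median was -0.37 with 12 of 13 below 0. Without LF 2 it was -1.14, with 7 of 13 lower at an unadjusted p under 0.05, against 37 of 351 miRNAs in either direction. In both lists LF 1 held the highest sum, and the part of cell content in these values was not tested.

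Leukocyte and Kupffer cell miRNAs had 8 of 12 above 0 (53.6% over all miRNAs) with a median of 0.56, although LF 1 held the highest sum of the 6 libraries. The 4 below 0 were miR-511-5p (-0.45), miR-146a-5p (-0.20), miR-146b-5p (-0.20) and miR-511-3p (-0.004). HF+Ex summed to 8430, 6067 and 7181 RPM. miR-155-5p, induced in activated macrophages and lymphocytes, had 120, 31.1 and 61.3 RPM in LF and 228, 124 and 231 RPM in HF+Ex (log2 difference 1.59, interval 0.46 to 2.73, adjusted p = 0.222). miR-223-3p of neutrophils was at 1664, 392 and 799 RPM in LF and 2087, 1478 and 1854 RPM in HF+Ex (1.15, adjusted p = 0.369), and LF 1 lay within the HF+Ex range. Without LF 1 the list's median was 0.95 and 10 of 12 were above 0; without LF 2, the library with the lowest sum, it was 0.10 and 8 of 12 were; without HF+Ex 1 it was 0.28. The defining miR-142-3p was at 0.36 (interval -0.38 to 1.11). Leaving out LF 1 alone gave 0 calls. With HF+CR 3 (high-fat diet with calorie restriction) left out as well, a setting chosen after seeing the data, 6 miRNAs were called, all higher: miR-155-5p (2.07, adjusted p = 0.00642, over a range to 0.462 in the settings without a library), miR-223-3p (1.68), miR-212-3p (1.67), miR-361-3p (0.98), miR-503-5p (0.97) and miR-5126 (1.62). miR-212-3p and miR-361-3p are named because of these calls, after their values were seen.

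Endothelial miRNAs had 4 of 5 above 0, with a median of 0.14 (-0.01 without HF+Ex 1, 0.05 without LF 3, 0.26 without HF+Ex 3). Stellate and mural miRNAs had 4 of 10 above 0, with a median of -0.11 whose direction rested on single libraries: it was 0.27 without LF 1, with 7 of 10 above 0, 0.14 without HF+Ex 3, and -0.39 without LF 2. Erythroid miRNAs had 1 of 5 above 0, with a median of -0.51 (-0.30 without LF 1, -0.82 without LF 2). Pancreatic miRNAs had 0 of 3 above 0, with a median of -0.58 (-1.03 without LF 1, -0.27 without LF 2). The 3 were miR-375-3p (-1.54), miR-216a-5p (-0.58) and miR-148a-3p (-0.39), the last also on the hepatocyte list. Neuronal miRNAs had 3 of 8 above 0 (miR-132-3p at 0.75, miR-129-5p at 0.22 and miR-128-3p at 0.09), with a median of -0.64. The lowest of the list, miR-124-3p, was at 3.63, 46.0 and 11.8 RPM in LF, and at 4.07, 4.28 and 1.45 RPM in HF+Ex. The muscle miRNAs miR-1a-3p and miR-133a-3p, the 2 tested of 6 in the files, were both below 0, and their list summed to 28.5, 155 and 87.3 RPM in LF and 19.1, 21.7 and 14.6 RPM in HF+Ex. LF 2 was the highest library for miR-124-3p and miR-1a-3p alike, and neither muscle miRNA had an unadjusted p under 0.05 without it, nor without HF+Ex 3. Among the fragment-like entries, 3 of 4 were above 0 with a median of 0.997, which was 0.05 without HF+Ex 1; miR-690 was at 387 RPM in that library and at 11.8 and 13.6 RPM in the other two.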

How the data were processed

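Small RNA from frozen liver was extracted with Trizol, enriched and sequenced, per the labels' protocols. The authors deposited RPM (library-size scaled reads) for 758 mature miRNAs in a series table and in a table per sample, which differed by at most 1.09e-11 RPM. Per the submitters' processing notes the build was mm10; for the aligner, counter and miRNA release: not given in the sources used here. In each library all values were whole multiples (100%, tolerance 0.001 reads) of the value of 1 read, with the smallest listed value at 2 reads. These inferred reads were used for depth and voom only, and no negative binomial count model was run on them.

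Differences were computed on log2(RPM + 1), which understates changes of low miRNAs, for miRNAs with at least 5 RPM in at least 3 of 18 libraries. limma 3.58.1 in R 4.3.3 fitted all 18 libraries with 1 coefficient per group (intensity trend, no robust weights); tests were two-sided with Benjamini-Hochberg adjustment over 351 miRNAs. HF against LF and HF+Ex against HF came from the same fit and share libraries with the main comparison. Named were the 12 miRNAs with the smallest p, the 10 most abundant, the 10 with the smallest p in HF against LF, and members of 20 lists; 6 list names were matched to older names in the files. The members and lists were chosen with earlier results of these data known. Libraries of a group were compared and none was a duplicate (chi-square per degree of freedom of at least 154). Figures used matplotlib 3.10.9 in Python 3.11.15.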

Additional observations from a re-analysis of the deposited data

How the results depend on the processing

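The count of 0 called miRNAs was also 0 with a pseudocount of 5 or 0.1 RPM, only the 6 libraries compared in the fit, no intensity trend, voom weights and identical miRNAs counted once. It was 1 with no filter (miR-211-5p, at 0 in LF and at most 2.85 RPM in HF+Ex), 1 with a filter of 50 RPM, and 5 after rescaling (4 higher, 1 lower, all among the 12 named). Leaving out 1 library gave 0 to 1 calls, with 1 without HF+Ex 1 (miR-17-5p) and 1 without HF+Ex 2 (miR-19b-3p). Of the settings chosen after seeing the data, 6 were called without LF 1 and HF+CR 3, and 0 without the 3 shallowest libraries. The 208 miRNAs with an interval between -1 and 1 became 501 with no filter, where 758 were tested, and 170 to 193 with 1 library left out. None of the 12 named miRNAs changed sign in any setting run. In all 12 the groups were apart, so leaving out a library could not turn the sign, and this adds no support.

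Libraries of HF+Ex and LF share replicate numbers. The deviations of same-numbered libraries correlated at -0.03, 0.05 and -0.11, so no shared deviation by number was seen. These values cannot show whether the numbers mark a shared batch. With the replicate number as a block 0 miRNAs were called. The 2 planned count-model tests on reads inferred from the RPM steps were not run; voom was the one test on those reads. The smallest listed value was 2 reads, and 3 reads correspond to 1.22 RPM in HF+Ex 1 and 0.327 to 0.417 RPM in LF.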

Other observations

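Of the 407 miRNAs under the filter, 56 were at 0 in all 6 libraries and 19 reached 5 RPM in at least 1 of them. Among these, miR-149-3p, chosen after its values were seen, had 0.778, 0.695 and 0.546 RPM in LF and 1.22, 5.35 and 6.36 RPM in HF+Ex, above every LF library in 3 of 3. Its other arm, miR-149-5p, was tested and had 150, 176 and 255 RPM in LF and 406, 385 and 389.5 RPM in HF+Ex (log2 difference 1.06, interval 0.15 to 1.97, adjusted p = 0.356 in limma). miR-296-5p and miR-296-3p were at 25.7 and 16.1 RPM in LF 1 and at most 4.26 RPM in the other 5 libraries. miR-3096b-3p was at 6.50 RPM in HF+Ex 1 and at most 0.401 RPM in the other 5, in the library that also held the most fragment-like entries.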
